A study of Homo sapiens with 6 samples.

Results

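The stability of an mRNA is set by proteins that read short elements in its 3′ untranslated region (3′ UTR), and 8 of the genes encoding such proteins are described here: the ZFP36 family (ZFP36, ZFP36L1 and ZFP36L2), ZC3H12A, RC3H1, RC3H2, ELAVL1 and KHSRP. The genes were chosen by symbol from the 20667 gene symbols of the expression tables, as a list put together with the differences between ROCK2 knockdown and control libraries already known. Those differences are therefore a description and are not independent evidence. All 8 genes were found, and all 8 passed the filter on low values that left 10526 genes in the comparison.

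The study silenced ROCK2, a serine-threonine kinase activated by RhoA, in U2932, a line of the activated B-cell type of diffuse large B-cell lymphoma (ABC-DLBCL), and asked which transcripts depend on it. RNA was sequenced from 3 libraries of cells with a ROCK2 shRNA (ROCK2 KD) and 3 libraries of cells with a scrambled shRNA (Scr shRNA), numbered 1 to 3 in each group. Both shRNAs were carried by lentiviral pLKO.1 vectors with puromycin resistance and tGFP, so the controls had been infected as well. The labels do not say whether the 3 libraries of a group came from separate infections or cultures, so the spread between them may be technical.

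The proteins act in opposing directions. ZFP36 (tristetraprolin), ZFP36L1 and ZFP36L2 carry CCCH zinc fingers that bind AU-rich elements and bring the CCR4-NOT deadenylase to the mRNA, and KHSRP (KSRP) also promotes the decay of AU-rich transcripts, while ELAVL1 (HuR) binds similar elements and stabilises the mRNA. ZC3H12A (Regnase-1) is an endoribonuclease that cleaves stem-loops in mRNAs of inflammatory proteins, and RC3H1 and RC3H2 (Roquin-1 and Roquin-2) bind such stem-loops and recruit the deadenylase. In lymphocytes those that promote decay limit the mRNAs of cytokines, of NF-κB subunits and of cell cycle genes. The protease MALT1, which is active in ABC-DLBCL, cleaves Regnase-1 and the Roquins.

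Several of the regulators carry AU-rich elements in their own mRNAs. The motif TATTTAT, the DNA letters of the core bound by the ZFP36 family, was searched on the transcript strand, with overlapping matches counted, in the 3′ UTR of the canonical GENCODE transcript on GRCh37. At least 1 match was present in 35.8% of the tested genes with an annotated 3′ UTR. ZFP36, ZFP36L1 and ZFP36L2 each held 3 matches, in 3′ UTRs of 708, 1871 and 1917 bases. Among tested genes with a 3′ UTR of 748 to 2179 bases, where ZFP36L1 and ZFP36L2 fall, 32.0% held a match, and among those with a shorter 3′ UTR, as in ZFP36, 11.7%. Windows of 30 bases around these matches are shown because they are the elements through which family members could be read by their own kind of protein, with every whole match in capitals:

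ZFP36L1 first match, chr14:69255052-69255081, minus strand: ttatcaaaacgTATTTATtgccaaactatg

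ZFP36L1 second match, chr14:69255010-69255039, minus strand: aattttgttcaTATTTATcgggatgacaaa

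ZFP36L1 last match, chr14:69254793-69254822, minus strand: aactgttggatTATTTATtttagaaattcc

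ZFP36L2 first match, chr2:43450586-43450615, minus strand: actatttaactTATTTATtatcttgtgaaa

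ZFP36L2 second match, chr2:43450538-43450567, minus strand: tgttcatactgTATTTATcaagtatgatga

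ZFP36L2 last match, chr2:43450350-43450379, minus strand: attgtatgtaaTATTTATttcattaatttc

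ZFP36 first match, chr19:39899821-39899850, plus strand: aatgggcccttTATTTATgacgactttatt

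ZFP36 second match, chr19:39899836-39899865, plus strand: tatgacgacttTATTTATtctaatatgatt

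ZFP36 last match, chr19:39899861-39899890, plus strand: tgattttatagTATTTATatatattgggtc

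In ZFP36 the 3 matches started within 40 bases of each other, while in ZFP36L1 and ZFP36L2 they spread over 259 and 236 bases. ELAVL1 and RC3H2 held 5 matches each and RC3H1 held 2, in 3′ UTRs of 4910, 5071 and 7637 bases. Of tested genes with a 3′ UTR of 2180 bases or more, 63.9% held a match. The 5 matches of ELAVL1 formed 1 cluster whose starts lay within 34 bases, and its densest window is shown for comparison with the separate sites of the ZFP36 family:

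ELAVL1 cluster, chr19:8026723-8026752, minus strand: tTATTTATaccTATTTATgTATTTATTTAT

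KHSRP and ZC3H12A held 0 matches, in 3′ UTRs of 1922 and 766 bases, which says only that these letters are not in those windows. A match is a description of the sequence and not a measured binding site.

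Expression was measured as FPKM, the fragments mapped to a gene relative to its transcript length and to all fragments mapped in the library, as computed by the authors. FPKM are already relative to transcript length, so levels can be set side by side between genes. The FPKM of the replicate 1 libraries summed to 217309 and 208289, less than in the others, where sums ran from 438262 to 480612. Libraries were therefore also scaled by trimmed means of their log ratios, and comparisons were made on log2(scaled FPKM + 1), a scale that understates the change of low genes. ROCK2 itself was listed at an FPKM of 2.75, 5.35 and 1.26 in ROCK2 KD replicates 1 to 3 and at 4.32, 7.21 and 5.78 in the Scr shRNA libraries, lower with the knockdown in each same-numbered pair. Its paralog ROCK1 was at 8.13, 16.3 and 15.2 against 8.64, 15.3 and 14.8. B-cell markers were present in all libraries, and the summed FPKM of 6 T-cell and of 6 myeloid markers stayed between 0.215 and 0.998. Of 7 B-cell markers, 7 were higher in ROCK2 KD in replicate 1, 4 in replicate 2 and 1 in replicate 3, with median differences of 0.44, 0.20 and -0.29 on the log2 scale after scaling. CD22 differed by 1.07, 0.34 and -1.57 in the 3 pairs, with an FPKM of 29.1 in ROCK2 KD replicate 3 against 85.5 in its partner, while CD79A was higher in each pair by 0.31, 0.20 and 0.12. The part of these marker differences in the results was not tested, and values without replicate 3 are given for the 8 genes, for the list medians it moved most and for NFKBID and CCL3. In bulk RNA, fewer cells of a type and less RNA per cell cannot be told apart.

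**Figure D1:**
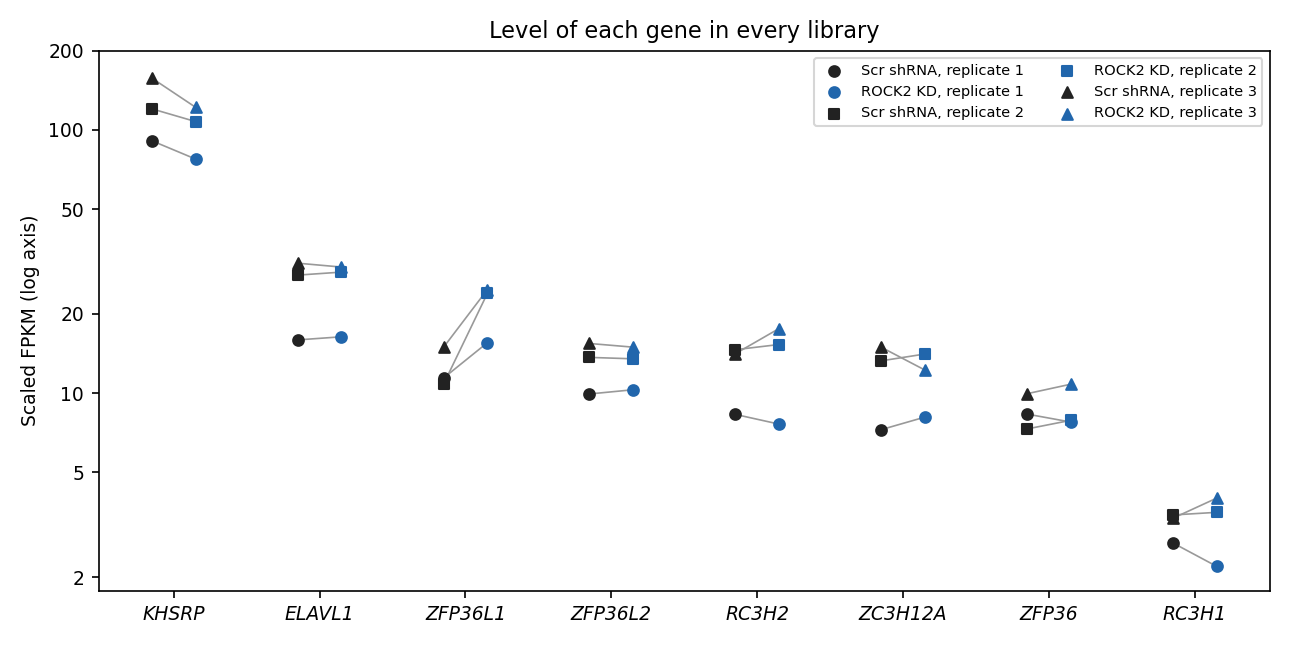
Scaled FPKM (log axis) of the 8 genes in each library, with Scr shRNA in black and ROCK2 KD in blue, a symbol for each replicate number and grey lines joining libraries of the same number. KHSRP was the most abundant and RC3H1 the least in all 6 libraries, and ZFP36L1 is the gene whose 3 blue points all lie above its 3 black points.

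In these cells KHSRP was by far the most abundant of the 8 transcripts. In the Scr shRNA libraries its scaled FPKM was 122.9 ± 33.3 (SD, n = 3), higher than that of 96.3% of the tested genes. ELAVL1 followed at 25.1 ± 8.05 (SD, n = 3), and RC3H1 was the lowest at 3.16 ± 0.406 (SD, n = 3), at the 20.2 percentile. ZFP36L2, ZFP36L1, RC3H2 and ZC3H12A lay together, at 13.0 ± 2.81, 12.4 ± 2.23, 12.4 ± 3.51 and 11.8 ± 4.04 (SD, n = 3 each), and ZFP36 at 8.53 ± 1.33 (SD, n = 3). Ordered by their mean over all 6 libraries, KHSRP exceeded ELAVL1, ELAVL1 exceeded ZFP36L1, and ZFP36 exceeded RC3H1 in each of the 6. The neighbours in between did not keep their order in the Scr shRNA libraries, where ZFP36L1 was above ZFP36L2 in 1 of 3, ZFP36L2 above RC3H2 in 2, RC3H2 above ZC3H12A in 2 and ZC3H12A above ZFP36 in 2, so these levels did not differ beyond their spread there. In ROCK2 KD ZFP36L1 was above ZFP36L2, and ZC3H12A above ZFP36, in 3 of 3 libraries, while ZFP36L2 was above RC3H2 in 1 and RC3H2 above ZC3H12A in 2.

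ZFP36L1 was the member with the widest separation between the groups. It lies on the minus strand of chromosome 14 of GRCh37, from 69254377 to 69262970. Its FPKM was 12.3, 27.4 and 27.6 in ROCK2 KD replicates 1, 2 and 3, and 9.0, 12.6 and 16.1 in Scr shRNA replicates 1, 2 and 3. After scaling it was 15.5, 23.9 and 24.7 in ROCK2 KD and 11.4, 10.8 and 14.9 in Scr shRNA libraries, so that the groups did not overlap. Before scaling they did overlap, with ROCK2 KD replicate 1 below Scr shRNA replicates 2 and 3. Every ROCK2 KD library lay above every Scr shRNA library in 0.903% of all tested genes. Within the pairs ZFP36L1 was higher in ROCK2 KD by 0.41, 1.08 and 0.69 on the log2 scale in replicates 1, 2 and 3. The log2 fold change was 0.73 with a standard error of 0.14, a 1.66-fold higher level, and ranked 32 from the highest among the 10526 genes. Limma, blocked on the replicate number, gave ZFP36L1 an adjusted p of 0.752, so the threshold of 0.05 was not reached, as for every other gene tested. Without replicate 3 the log2 fold change was 0.74, and over the 3 fits that each leave out a replicate number it lay between 0.55 and 0.88.

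The other members of the family differed little between the groups. ZFP36L2, on chromosome 2 from 43449541 to 43453745, was listed at an FPKM of 8.16, 15.5 and 16.7 in ROCK2 KD replicates 1 to 3 and 7.83, 15.9 and 16.7 in Scr shRNA, nearly the same within each pair. Its differences were 0.05, -0.02 and -0.04, and its log2 fold change was 0.00 (standard error 0.10), and 0.02 without replicate 3. ZFP36, on chromosome 19 from 39897487 to 39900052 and known as an immediate early gene, was at 6.15, 9.02 and 12.0 in ROCK2 KD and 6.57, 8.5 and 10.7 in Scr shRNA. Its groups overlapped, and its differences were -0.09, 0.10 and 0.11. Its log2 fold change was 0.04 (standard error 0.11), with 0.00 without replicate 3 and 0.10 without replicate 1. A difference of this size lies within the standard error for both genes, which does not show that they were equal.

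Ratios between genes of 1 library do not depend on how libraries are scaled, and they gave the same picture. The FPKM of ZFP36L1 divided by that of ZFP36L2 was 1.51, 1.77 and 1.65 in ROCK2 KD replicates 1 to 3 and 1.15, 0.792 and 0.968 in Scr shRNA, with no overlap. ZFP36L1 over ZFP36 was 2.0, 3.03 and 2.29 against 1.37, 1.48 and 1.5, also with no overlap. Within the pairs these ratios were higher in ROCK2 KD by 0.78 ± 0.38 and 0.73 ± 0.27 on the log2 scale (SD, n = 3 each). Of the summed FPKM of the 3 family members, ZFP36L1 made up 46.2%, 52.8% and 49.0% in ROCK2 KD and 38.5%, 34.0% and 37.0% in Scr shRNA. The summed scaled FPKM of the family was 33.6, 45.3 and 50.5 in ROCK2 KD and 29.7, 31.8 and 40.3 in Scr shRNA, so the pool of family transcripts was higher in each pair while its 2 group ranges overlapped. Since the 8 genes were put together with their differences known, the ratios are a description as well. ZFP36L2 and ZFP36 differed little between the groups, so both ZFP36L1 ratios mainly restate the difference of ZFP36L1. How often ratios between other genes are free of overlap was not counted.

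**Figure D2:**
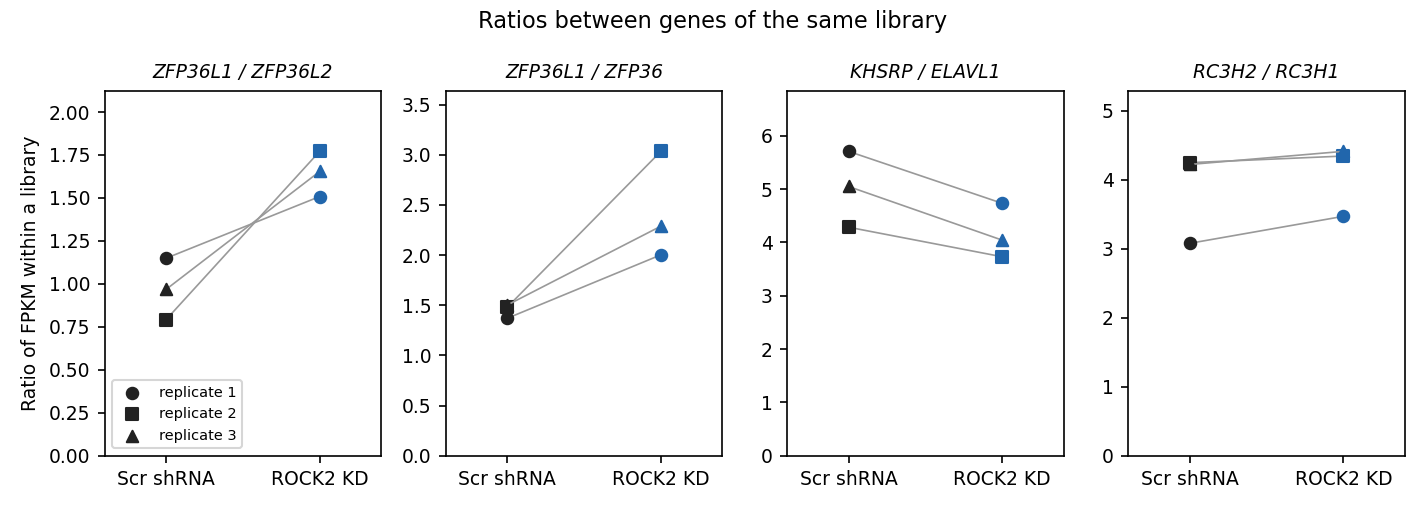
Ratio of FPKM between 2 genes of the same library (linear axes from 0) for Scr shRNA and ROCK2 KD, with grey lines joining libraries of the same replicate number. Both ZFP36L1 ratios are higher in every ROCK2 KD library than in any Scr shRNA library, KHSRP over ELAVL1 is lower in each pair by 0.20 to 0.32 on the log2 scale, and RC3H2 over RC3H1 differs by 0.03 to 0.17.

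KHSRP, on chromosome 19 from 6413113 to 6424822, was the other member with the same direction in all pairs. Its FPKM was 61.4, 123.1 and 135.8 in ROCK2 KD replicates 1 to 3 and 71.8, 139.9 and 169.8 in Scr shRNA. The 2 groups overlapped, and each ROCK2 KD library was below its partner. The differences were -0.23, -0.16 and -0.37 on the log2 scale and limma, blocked on the replicate number, gave a fold change of -0.25 on that scale, with a standard error of 0.10 and an adjusted p of 0.895, ranking 548 from the lowest. Without replicate 3 it was -0.19. Relative to ELAVL1, which reads similar elements but stabilises the mRNA, KHSRP was at 4.74, 3.73 and 4.04 in ROCK2 KD and 5.71, 4.29 and 5.05 in Scr shRNA, a difference of -0.26 ± 0.06 (SD, n = 3) on the log2 scale. All tested genes were higher in all 3 pairs in 12.7% of cases and lower in all 3 in 12.4%, and with 1 of 8 members each way the list had 12.5% and 12.5%, near this background.

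ELAVL1, on chromosome 19 from 8023457 to 8070543, had nearly the same FPKM in both groups. Its FPKM was 13.0, 33.0 and 33.6 in ROCK2 KD replicates 1 to 3 and 12.6, 32.6 and 33.6 in Scr shRNA, with differences of 0.04, 0.04 and -0.05, and its log2 fold change was 0.01 (standard error 0.10), and 0.04 without replicate 3. Its reads may include those of a long noncoding RNA annotated on the opposite strand over 890 bases, since a stranded library is not stated. The same holds for ZFP36L2, which an annotated antisense transcript overlaps by 826 bases. On their own strand, ZFP36L1 shares 512 bases of its span with an annotated long noncoding RNA gene and RC3H1 shares 6940 bases with RC3H1-IT1, and reads from these stretches cannot be told apart by strand.

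The stem-loop regulators showed no shared direction. ZC3H12A, on chromosome 1 from 37940181 to 37949978, was at an FPKM of 6.42, 16.1 and 13.6 in ROCK2 KD and 5.73, 15.4 and 16.1 in Scr shRNA. It was higher in ROCK2 KD in replicates 1 and 2 (0.14 and 0.08 on the log2 scale) and lower in replicate 3 (-0.27). Its log2 fold change of -0.02 (standard error 0.12) turned to 0.11 without replicate 3 and was -0.09 without replicate 1. RC3H1, on chromosome 1 from 173900222 to 173991495, was at 1.74, 4.03 and 4.44 in ROCK2 KD and 2.13, 4.0 and 3.61 in Scr shRNA. RC3H2, on chromosome 9 from 125606835 to 125667638, was at 6.04, 17.5 and 19.6 against 6.55, 17.0 and 15.2. Both Roquin transcripts were lower in ROCK2 KD in replicate 1 and higher in the other 2 pairs. The differences were -0.21, 0.03 and 0.20 for RC3H1 and -0.11, 0.06 and 0.30 for RC3H2. Their log2 fold changes were 0.01 (standard error 0.13) and 0.08 (standard error 0.12). Without replicate 3 they turned to -0.09 and -0.02, and without replicate 1 they were 0.11 and 0.18. For the 6 genes other than ZFP36L1 and KHSRP, limma with this block gave adjusted p values of 0.987 to 0.998.

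**Figure D3:**
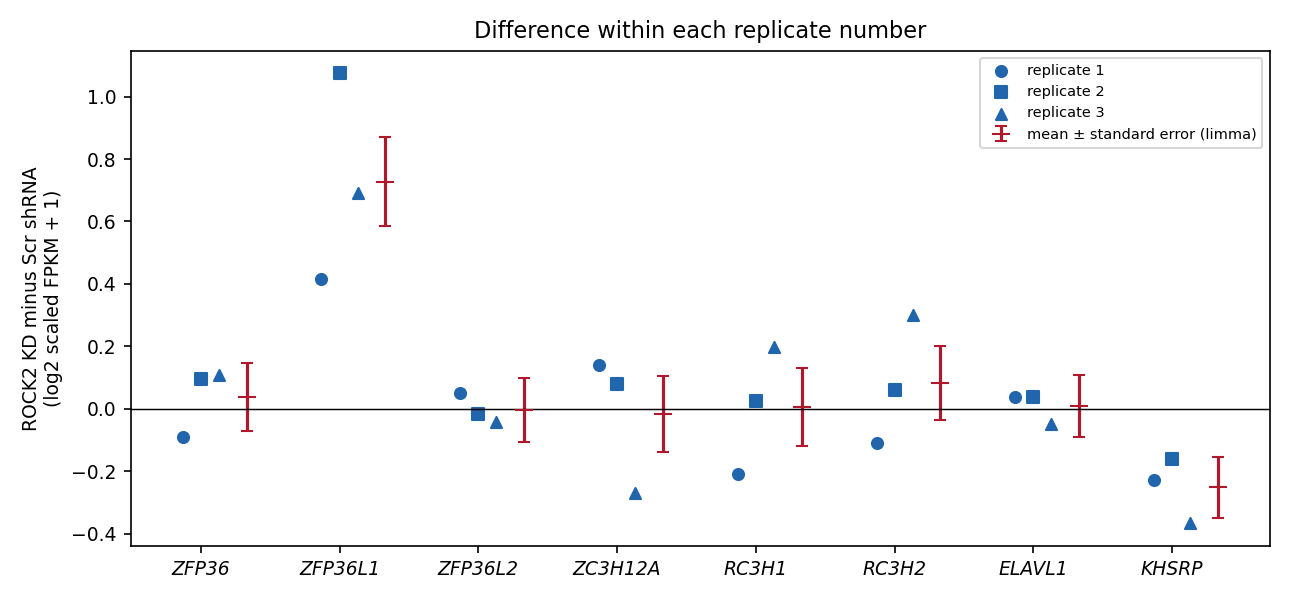
Difference between ROCK2 KD and Scr shRNA on log2(scaled FPKM + 1) within replicates 1 (circles), 2 (squares) and 3 (triangles), with the mean and standard error from limma in red. ZFP36L1 lies above 0 and KHSRP below 0 in all 3 pairs, and the other 6 genes are centred between -0.02 and 0.08.

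Limma with this block called 0 (0%) of the 10526 genes at an adjusted p under 0.05, and 576 were under 0.05 before adjustment. The study corrected for the replicate with ComBat before limma, on counts, while log2 scaled FPKM were used here. With ComBat followed by limma without the block, 294 genes (2.79%) passed the threshold of 0.05, among them ZFP36L1 (adjusted p = 0.0315) and KHSRP (adjusted p = 0.0423). That order of steps does not subtract the degrees of freedom spent on the replicate means, so its p values are too small and these calls are not evidence of a difference.

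For most of the 8 genes the replicate number separated the libraries more than the knockdown did. Replicate 1 was lower than the mean of replicates 2 and 3 by 0.85 in Scr shRNA and 0.81 in ROCK2 KD for ELAVL1, on the log2 scale after scaling. RC3H2 was lower there by 0.72 and 1.01, and ZC3H12A by 0.87 and 0.63. All tested genes had a median shift of -0.27 in each group, and 51.0% were lowest in replicate 1 in both groups. ZFP36 differed from this, being lower in replicate 1 by only 0.03 in Scr shRNA and 0.22 in ROCK2 KD, and ZFP36L1 was lower by 0.15 and 0.61. The scaled level of ZFP36L1 in ROCK2 KD replicate 1, 15.5, was thus near that of Scr shRNA replicate 3, 14.9.

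The genes whose pattern over the 6 libraries was most like that of each member were found by Pearson's r, as a description. ELAVL1 was most like H2AFZ, a histone variant gene, RC3H2 like DNAJC14, ZFP36L2 like BRCC3, ZC3H12A like NACA and RC3H1 like STRN3, with r of 0.9976 or more. The libraries share the replicate shift, and 1835 genes reached r over 0.95 with ELAVL1. KHSRP was most like CNOT3, a subunit of the CCR4-NOT deadenylase (r = 0.997, with 101 genes over 0.95). ZFP36 was most like CAAP1 (r = 0.993) and ZFP36L1 like CCNYL1 (r = 0.987), and ZFP36L1 had 7 genes over 0.95, the fewest of the 8.

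The machinery that these regulators act through was compared next. Among 20 tested genes of deadenylation, which shortens the poly(A) tail, 3 were higher and 4 lower in all pairs, beside 12.7% and 12.4% of all tested genes, and the median log2 fold change was -0.01, which turned to 0.03 without replicate 1. CNOT6L, a catalytic subunit of CCR4-NOT, was higher by 0.17 (standard error 0.11) and PAN2, the catalytic subunit of the PAN deadenylase, lower at -0.29 (standard error 0.11). The FPKM of PAN2 was 5.88, 5.01 and 3.17 in ROCK2 KD replicates 1 to 3 and 6.70, 6.68 and 4.27 in Scr shRNA. Of 17 genes of decapping and 5′ decay, 1 was higher and 1 lower in all pairs, the exonuclease XRN1 at 0.17 (standard error 0.12), or 0.05 without replicate 3, and the decapping enhancer EDC4 at -0.11 (standard error 0.10), with a median of -0.02 that turned to 0.04 without replicate 1.

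Of 16 genes of the RNA exosome and SKI complex, which degrade from the 3′ end, 1 was higher and 3 lower in all pairs, with a median of -0.05 that turned to 0.03 without replicate 3. TTC37, the scaffold of the SKI complex, was at 0.23 (standard error 0.11) and the exosome subunit EXOSC4 at -0.29 (standard error 0.11). Of 10 genes of nonsense-mediated decay, the pathway that removes mRNAs with early stop codons, 0 were higher and 3 lower in all pairs, where 12.7% and 12.4% of all tested genes were. The median of these 10 was -0.09, but -0.02 without replicate 1, -0.15 without replicate 2 and -0.16 without replicate 3. UPF3B, which links the exon junction complex to UPF1, was at -0.28 (standard error 0.10). The median of all tested genes was -0.01. None of these genes passed the threshold in limma with this block, where the lowest adjusted p was 0.866.

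Of 16 tested binders of AU-rich or other regulatory elements, 4 were higher and 1 lower in all pairs. Among all tested genes these shares were 12.7% and 12.4%. The median of the list was 0.01, which turned to -0.05 without replicate 2 and was 0.04 without replicate 3. IGF2BP3, an RNA-binding protein that protects its targets from decay, was at an FPKM of 16.6, 27.8 and 33.0 in ROCK2 KD replicates 1 to 3 and 11.0, 23.4 and 25.9 in Scr shRNA, a log2 fold change of 0.37 (standard error 0.11). Each ROCK2 KD library was above its partner, and the groups overlapped. IGF2BP1, of the same family, was at -0.09 (standard error 0.10). ELAVL2 was listed at 0 in all libraries and ELAVL3 in all but 1.

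Proteins that modify the 8 regulators gave 2 genes of 9 higher and 0 lower in all pairs, beside the same 12.7% and 12.4%. MAPKAPK2, the kinase that phosphorylates ZFP36 family proteins and thereby restrains decay, was at an FPKM of 16.6, 43.4 and 63.7 in ROCK2 KD replicates 1 to 3 and 13.2, 40.5 and 43.5 in Scr shRNA. It was higher in each pair, by 0.31, 0.12 and 0.49, and limma with this block put the mean at 0.31, with a standard error of 0.11 and an adjusted p of 0.866. MALT1, which cleaves Regnase-1 and the Roquins, had pair differences of 0.00053, 0.39 and 0.10, so that it counts as higher in replicate 1 by almost nothing, and a mean of 0.16 with a standard error of 0.12, or 0.05 without replicate 2. The median of the 9 genes was 0.00, and 0.04 without replicate 1.

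**Figure D4:**
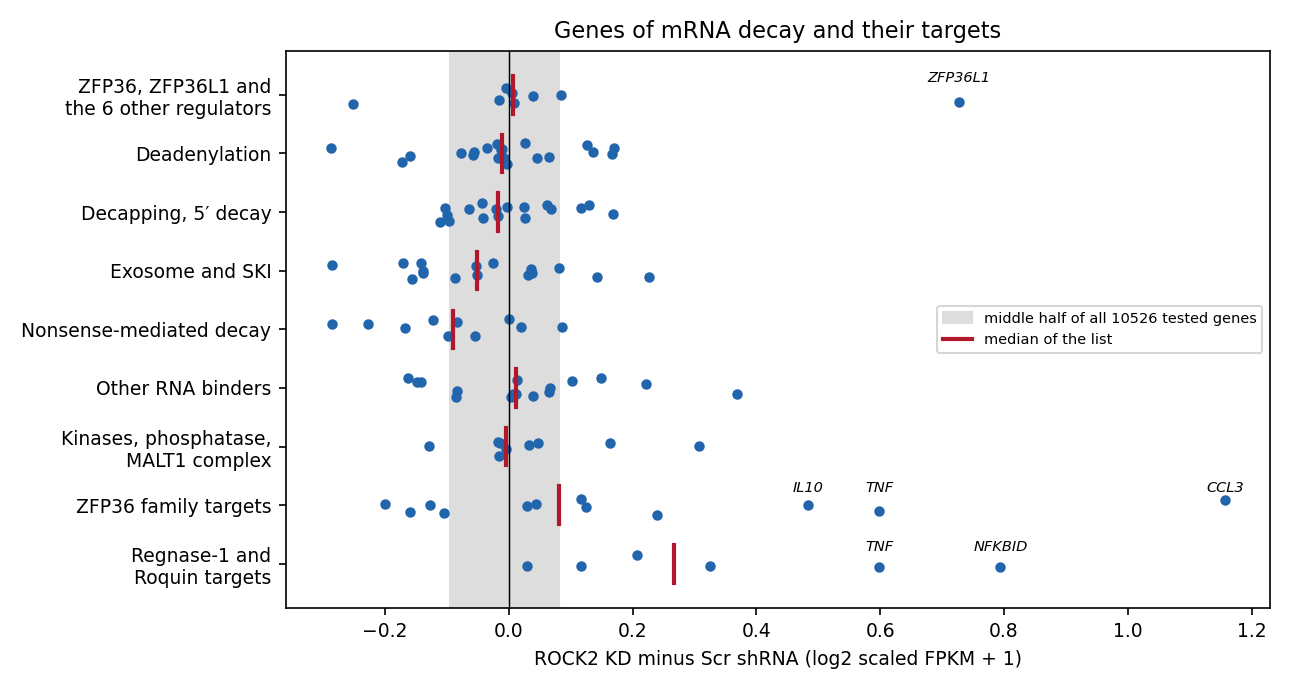
Log2 fold changes (log2 scaled FPKM + 1) of the tested genes of each list, with a dot per gene, the median of the list in red and the range between the lower and upper quartile of all 10526 tested genes in grey. The medians of the machinery lists lie between -0.09 and 0.01, and the named target genes extend furthest to the right.

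Only some of the transcripts that the regulators are known to bind passed the filter on low values. Of 23 known AU-rich targets of the ZFP36 family, 21 were listed and 12 tested, 8 with a higher and 4 with a lower level in ROCK2 KD, 2 and 1 of them in all pairs, with a median of 0.08. Of all tested genes 48.0% had a positive log2 fold change, and 12.7% and 12.4% were higher and lower in all pairs. The median of the 12 was 0.01 without replicate 1 and was 0.12 without replicate 3. IL10, a cytokine, was at an FPKM of 0.325, 2.52 and 1.46 in ROCK2 KD replicates 1 to 3 and 0.0678, 1.28 and 0.731 in Scr shRNA, higher in each pair and near the filter on low values. CCND3, a G1 cyclin, was lower in each pair with a log2 fold change of -0.20 (standard error 0.10). TNF, the classical target of ZFP36, was at 8.02, 45.8 and 3.36 in ROCK2 KD and 8.72, 15.1 and 2.29 in Scr shRNA. It was lower in replicate 1 and higher in the others (-0.11, 1.55 and 0.36), and its mean difference of 0.60, with a standard error of 0.28, rested mainly on replicate 2, without which it was 0.12. MYC differed in sign between the pairs (0.35, -0.06 and -0.61).

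CCL3, a chemokine named here after its values were seen, had the highest log2 fold change of the targets, 1.16 (standard error 0.34), with differences of -0.06, 1.59 and 1.94. It was 1.77 without replicate 1 and 0.76 without replicate 3. Its near-identical copies in the genome make its level uncertain. The AU-rich sites of TNF and CCL3 are shown because the 2 targets differ in the density of the motif that ZFP36 proteins read, with 8 and 1 matches in 3′ UTRs of 799 and 416 bases:

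TNF cluster, chr6:31545778-31545807, plus strand: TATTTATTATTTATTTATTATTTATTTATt

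CCL3 match, chr17:34415834-34415863, minus strand: aaattttaattTATTTATactatttagttt

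Of 14 targets of Regnase-1 and Roquin, 6 were tested, and all 6 had a positive log2 fold change, from 0.03 for NFKBIZ to 0.79 for NFKBID, against 48.0% of all tested genes. Without replicate 1 only 4 of the 6 were positive. The median was 0.27, and 0.25, 0.19 and 0.37 without replicates 1, 2 and 3. In all 3 pairs 2 of the 6 were higher and 0 lower, beside 12.7% and 12.4% of all tested genes. NFKBID, an atypical inhibitor of NF-κB whose mRNA is bound by Roquin, was at an FPKM of 4.37, 14.3 and 35.4 in ROCK2 KD replicates 1 to 3 and 3.8, 8.89 and 10.7 in Scr shRNA, higher in each pair by 0.16, 0.64 and 1.58, and by 0.40 on average without replicate 3. Its lead in replicate 3 came from the library in which CD22 was lower than in its partner, and the part of that library in the result was not tested. REL, an NF-κB subunit named after its values were seen, was at 6.27, 15.3 and 14.4 against 4.15, 11.6 and 13.2, a mean difference of 0.32 on the log2 scale with a standard error of 0.12. The targets TNF and IER3 stand in both lists, and IL10 had the lowest adjusted p of the 2 lists, 0.752 in limma with this block.

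The motif was also counted over all tested genes. Of these, 87.9% had an annotated 3′ UTR, and 5939 of them held 0 matches, 1894 held 1, 1106 held 2 to 3 and 316 held 4 or more. The median log2 fold changes of these classes were -0.01, 0.01, 0.02 and 0.03. Lower in all pairs were 13.2%, 9.66%, 9.22% and 5.70% of the genes, and higher in all pairs were 11.4%, 15.7%, 14.6% and 19.0%. Within replicate 2 the class medians were -0.01, 0.05, 0.07 and 0.08, and in replicate 3 they were -0.03, 0.01, 0.01 and 0.02. In replicate 1 the class medians were 0.01, 0.00, -0.02 and 0.01 and had no order. Genes with more matches had longer 3′ UTRs, with median lengths of 843, 2050, 3238.5 and 5230 bases. When genes were split into 3 classes of nearly equal size by 3′ UTR length, the medians with and without a match were 0.02 and 0.01 in the longest class, 0.01 and -0.01 in the middle class, and -0.03 and -0.02 in the shortest class. The range between the quartiles was -0.09 to 0.08 over all genes with a 3′ UTR. That range is the spread of single genes and does not measure the precision of a class median. Whether the classes differ was not tested.

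**Figure D5:**
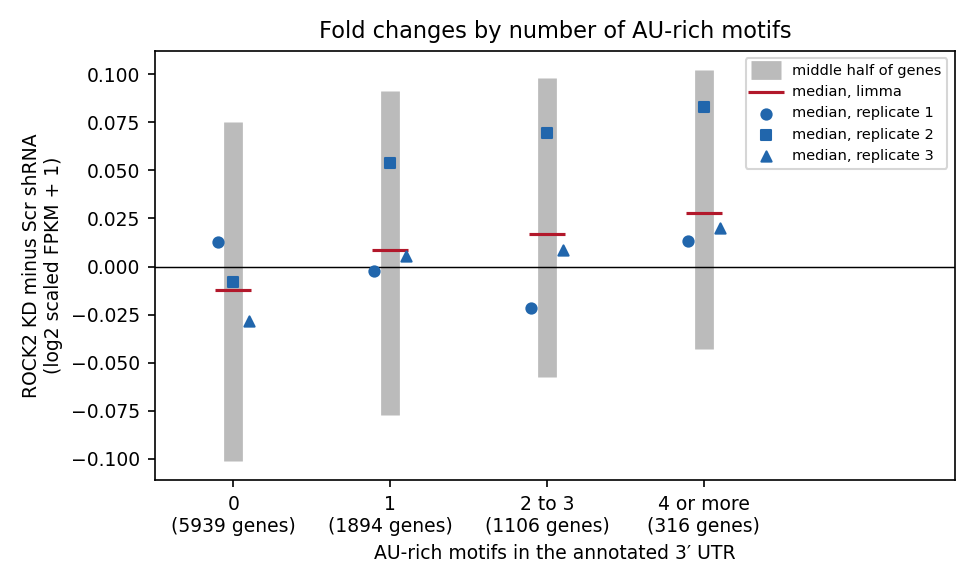
Log2 fold changes (log2 scaled FPKM + 1) of tested genes by the number of TATTTAT matches in the 3′ UTR, with the range between quartiles in grey, the median in red and the medians within replicates 1, 2 and 3 as circles, squares and triangles. The medians move from -0.01 to 0.03 with the number of matches, in order in replicate 2 and without order in replicate 1.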

How the data were processed

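RNA-seq libraries of U2932 cells, 3 ROCK2 KD and 3 Scr shRNA, were analysed, with groups and replicate numbers from the sample labels. The authors prepared Nextera libraries, aligned paired reads to hg19 with STAR and deposited FPKM computed with Cufflinks, 1 library per file. The gene annotation and library strandedness are not given in the sources used here. FPKM hold no counts. The smallest values of shared genes, between 5e-04 and 0.05 FPKM, gave relative depths of 71.4% to 92.8% of Scr shRNA replicate 3, and no counting interval can be given.

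Scaling used trimmed means of the log ratios between libraries (trims 0.3 and 0.05). Genes were kept where 3 or more libraries had an FPKM of 1 or more, and log2(scaled FPKM + 1) was fitted in limma 3.58.1 (R 4.3.3) with condition and replicate block, the prior variance as a trend on mean level, and p-values adjusted by Benjamini-Hochberg over all 10526 genes, two-sided. Replicate numbers pair the libraries: deviations of same-numbered libraries from group means correlated at 0.855, 0.785 and 0.742 across genes. The fit was tested on simulated data, where it missed many of the changes put in. A gene short of the threshold is therefore not shown to be unchanged. 3′ UTRs are those of canonical transcripts in GENCODE 44 lifted to GRCh37, the build of hg19, and were read in Python 3.11.15.

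The 8 genes and all lists were chosen with earlier results of these data known. Named from each list were the genes with the highest and the lowest log2 fold change among those of 1 direction in all pairs, with MALT1, MAPKAPK2, TNF, IL10, MYC, ROCK1 and ROCK2. CD22, CCL3, REL, NFKBIZ, IER3, ELAVL2, ELAVL3, ZC3H12C, FOS and CCND1 were named after their values were seen. Alternatives covered the block, ComBat (parametric, without the condition), pseudocount, filters, scaling, trend and leaving out each replicate number. The authors' fold changes, protein sequences and primary lymphomas were not used here.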

Additional observations from a re-analysis of the deposited data

How the results depend on the processing

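The count of genes with an adjusted p under 0.05 was 0 with the replicate block and 0 with no replicate block, where 26 had an unadjusted p under 0.05. It was also 0 with a pseudocount of 0.1, without a filter, with an FPKM of at least 1 in every library, without scaling, with quantile normalization and without the trend. It was 294 after ComBat followed by limma without the block, 158 with a higher level in ROCK2 KD and 136 with a lower one, from p values that are too small because the replicate means cost no degrees of freedom there. With replicate numbers left out in turn it ranged from 0 to 14, with 14 without replicate 1, 0 without replicate 2 and 4 without replicate 3. These counts are too few to rank the replicates, and the cause was not tested.

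Over the 11 alternatives ZFP36L1 was higher in 11 and KHSRP lower in 11, with log2 fold changes of 0.55 to 0.88 and -0.30 to -0.19. Among them only ComBat brought either past the threshold (adjusted p = 0.0315 and 0.0423 from limma), and the lowest adjusted p of ZFP36L1 was 0.593 under the other settings with all libraries and 0.127 with a replicate number left out. For KHSRP these were 0.857 and 0.672. ZFP36L2, ZC3H12A, RC3H1, RC3H2 and ELAVL1 had either sign across the alternatives. Over the same alternatives the median of the ZFP36 family targets ranged from 0.01 to 0.12, that of the Regnase-1 and Roquin targets from 0.19 to 0.37 and that of nonsense-mediated decay from -0.16 to -0.02, while the medians of the other 5 lists had either sign. The number of reads behind a value is not known, so the precision of RC3H1, IL10 and other low genes is limited by an unknown depth.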

Other observations

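ZC3H12C, a relative of Regnase-1 that did not pass the filter on low values, was at an FPKM of 0.575, 1.44 and 4.2 in ROCK2 KD replicates 1 to 3 and 0.545, 0.474 and 0.805 in Scr shRNA, and was singled out after its values were seen. FOS, an AU-rich immediate early transcript below the filter, was at 0.119, 0.787 and 0.670 in ROCK2 KD and 0.216, 0.0789 and 0.268 in Scr shRNA, higher in replicates 2 and 3. CCND1 was at 1.78 and 2.15 in the libraries of replicate 1 and at 0.207 or less in the other 4. Of the marker list for packaging cells, CDH2 alone was abundant, at an FPKM of 32.9 to 173.6 over the libraries of both groups, and the other 4 genes were below 1 in every library.

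Across the 6 libraries, after scaling, the levels of ZFP36L2, ZC3H12A, RC3H1, RC3H2 and ELAVL1 correlated with each other with Pearson's r from 0.795 to 0.985, where all share the replicate shift. ZFP36L1 correlated with the other 7 genes at 0.116 to 0.515.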
